A study of Mus musculus with 15 samples.

Results

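The 10 integrin genes Itga3, Itga5, Itga6, Itga7, Itga9, Itgav, Itgb1, Itgb4, Itgb5 and Itgb7 were followed by RNA-seq through a knockdown of Smarcb1 in murine embryonic stem cells (mESC). They were picked as named members of the integrin family from 55228 genes listed, and 17 further integrin genes in the tables were used for comparison. The cells were the line 81K1, a single clone made from OG2 cells, with an shRNA against Smarcb1 inserted at the Rosa26 locus behind a promoter that needs doxycycline. The Smarcb1 protein sits in the core of BAF complexes, which remodel chromatin. Knockdown cells (kd) received 1 µg/ml doxycycline daily and were collected at 48 h, 72 h and 240 h. Control cells (ctrl) of the same line, which carry the shRNA cassette too, were left untreated and collected at 48 h and 240 h. All cells grew on gelatine with LIF, and each of the 5 groups held 3 libraries. The 72 h kd libraries have no control of their own here and were set against 48 h ctrl. Cells without the shRNA but given doxycycline were not analysed here, so effects of the drug and of the knockdown cannot be told apart. The labels do not say that replicates came from separate cultures, so p-values measure the spread between these libraries, which may be technical.

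Integrins are surface receptors that tie a cell to the extracellular matrix or to other cells. Each receptor is a dimer of an α chain, from an Itga gene, and a β chain, from an Itgb gene, and the pair sets which ligand is bound. The Itgb1 chain is the most widely shared, and the α chains of Itga3, Itga5, Itga6, Itga7, Itga9 and Itgav can all pair with it. Those of Itga3, Itga6 and Itga7 make laminin receptors, that of Itga5 the classical fibronectin receptor, that of Itgav receptors for vitronectin and fibronectin, and that of Itga9 a receptor for tenascin and related ligands. The Itgb4 chain pairs with that of Itga6 in hemidesmosomes, the Itgb5 chain with that of Itgav, and the Itgb7 chain with those of Itga4 and Itgae on lymphocytes. Inside the cell the short tails bind talin and kindlin, which switch the receptor on, and adaptors that link it to actin. In mESC, integrins bind the laminin and fibronectin that the cells themselves lay down.

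The promoters of the members that fell are shown first, beside that of the shared chain Itgb1, since 3 members differed between kd and ctrl in the same direction at 72 h. RefSeq on GRCm38.p6 gave 250-base windows upstream of a start for 7 of the 10 members, 8 windows in all because Itga3 has 2 starts. Windows for Itga6, Itga7 and Itgb4 were not matched. Each sequence below runs 5′ to 3′ on the gene's strand and leaves out bases that GENCODE places in an exon, and capitals mark GC boxes (GGGCGG or its reverse complement CCGCCC), the motif of Sp1-type factors. The Itga9 stretch is chr9:118711442-118711656 (+ strand). It lies inside the Itga9 span that the deposited tables give, upstream of an internal start. The Itga3 stretch is chr11:95076802-95076964 (- strand), the Itgb7 stretch chr15:102231945-102232185 (- strand) and the Itgb1 stretch chr8:128685404-128685653 (+ strand).
Itga9: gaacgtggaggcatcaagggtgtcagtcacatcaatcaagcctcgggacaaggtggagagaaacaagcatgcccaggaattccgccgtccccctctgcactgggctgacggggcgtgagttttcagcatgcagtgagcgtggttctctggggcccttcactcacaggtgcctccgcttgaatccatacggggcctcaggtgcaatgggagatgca
Itga3: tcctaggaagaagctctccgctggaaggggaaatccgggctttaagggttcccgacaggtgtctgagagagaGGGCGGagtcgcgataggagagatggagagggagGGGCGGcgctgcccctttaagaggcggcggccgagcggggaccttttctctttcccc
Itgb7: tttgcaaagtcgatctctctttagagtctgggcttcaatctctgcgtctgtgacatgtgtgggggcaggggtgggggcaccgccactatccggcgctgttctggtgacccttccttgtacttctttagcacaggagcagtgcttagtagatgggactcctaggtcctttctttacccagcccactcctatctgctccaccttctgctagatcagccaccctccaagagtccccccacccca
Itgb1: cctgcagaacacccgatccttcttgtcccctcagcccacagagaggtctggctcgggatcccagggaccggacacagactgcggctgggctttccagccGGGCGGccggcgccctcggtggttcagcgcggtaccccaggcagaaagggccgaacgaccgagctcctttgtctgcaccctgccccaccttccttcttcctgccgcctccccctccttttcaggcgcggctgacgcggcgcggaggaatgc

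The 4 promoters differ in base composition. The full 250-base windows held 10 CpG dinucleotides for Itga9, 22 for the Itga3 start shown, 5 for Itgb7 and 21 for Itgb1, against a median of 6 over all promoters. A GC box stood in 5 of the 8 integrin windows, on either strand, and in 32.7% of 32851 promoters of the same length. The Itga9 and Itgb7 windows held none. The octamer motif ATGCAAAT of Pou5f1-type factors, the E-box CACGTG and the TATA box TATAAA were in 0 of the 8 windows, and in 1.6%, 6.02% and 12.4% of all promoters. These motifs do not overlap one another in letters, and their absence says only that the letters are not in these windows.

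The recovered library totals lay between 11074998 and 14515300 reads. Levels are given as rpm, the reads over the whole gene span, introns included, per 1000000 reads of the library. Smarcb1 itself stood at 84.7, 86.0 and 97.8 rpm in 48 h ctrl and at 12.5, 20.4 and 15.4 rpm in 48 h kd, a level of 18.0% of control. It was at 15.7% in 72 h kd and at 19.3% in 240 h kd. All 7 mESC markers were read in every group, and their summed level lay between 4362 and 6153 rpm. The library 48 h kd replicate 2 stood apart, with 2.53% mitochondrial reads, the highest share, and the largest departures from its replicates, so values without it are given where they bear on a result.

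The level of the integrins in unperturbed cells spanned more than 2 orders of magnitude. To compare genes, rpm was divided by the exonic length in kb. In 48 h ctrl, Itgb1 was highest at 88.9 ± 3.06 rpm per exonic kb (SD, n = 3). Itgb5 followed at 25.3 ± 0.952, Itga6 at 21.4 ± 0.181 and Itga5 at 13.8 ± 0.660 rpm per exonic kb, each apart from its neighbour in the order. Itgb7 was at 10.7 ± 0.458 rpm per exonic kb. Itga3 at 5.45 ± 0.456 and Itga9 at 5.40 ± 0.300 rpm per exonic kb overlapped and cannot be ordered. Itgav came next among the members at 3.67 ± 0.285, then Itgb4 at 1.26 ± 0.0936 and Itga7 at 0.348 ± 0.0896 rpm per exonic kb. The laminin receptor chain Itga6 and the fibronectin receptor chain Itga5 were thus the highest α chains of the 10, and the hemidesmosome chain Itgb4 and the muscle-type laminin chain Itga7 the lowest of the 10. Intronic reads may be part of these levels, and the span is 38.3 times the exonic length in Itga9 and 33.7 times in Itgb5, against 3.02 times in Itga7.

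**Figure D1:**
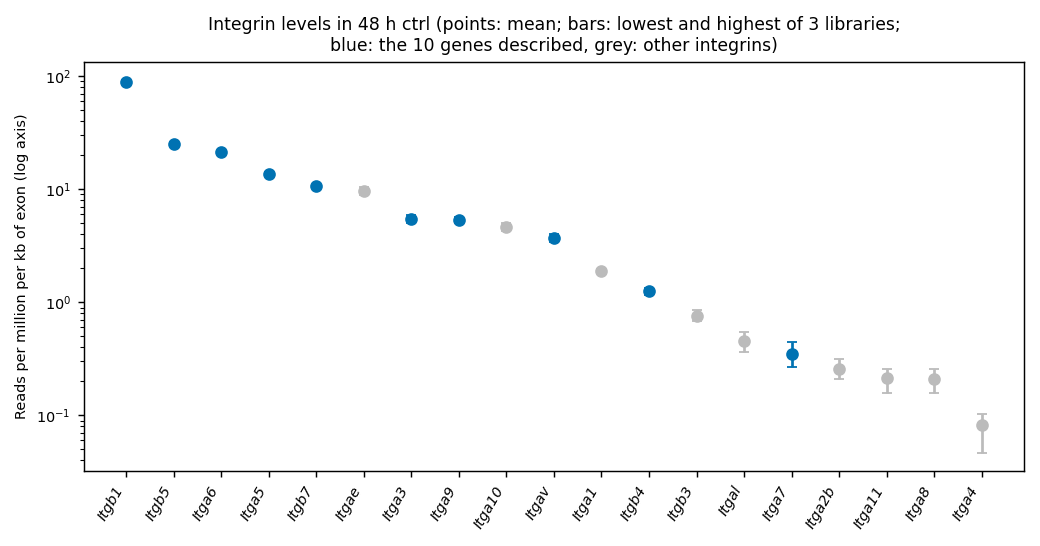
Level of integrin genes in 48 h ctrl, in rpm per kb of exon on a log axis, for genes with at least 9 reads in each of the 3 libraries; points are means and bars run from the lowest to the highest library. Itgb1 at 88.9 is the highest and the member Itga7 at 0.348 lies among low integrins such as Itgal and Itga2b.

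Among the 17 other integrins, Itgae (9.72 rpm per exonic kb), Itga10 (4.68) and Itga1 (1.89) reached levels of the members in 48 h ctrl, but much of their signal cannot be assigned to them. Reads of Haspin, a kinase gene nested in Itgae on the opposite strand, equalled 83.0% to 90.9% of the Itgae reads. Those of Pelo, nested in Itga1, equalled 76.5% to 97.8% of the Itga1 reads. Itga10 shares 7518 bases with Gm42957. The leukocyte chain Itgax was at 0 reads in all 15 libraries, and its partner Itgb2 had 1 to 10 reads. Itga4, the partner chain of Itgb7, had 5 to 20 reads.

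From 2 to 4 of the 10 members were called in each knockdown comparison. Itga9 was lower at all 3 times and Itgb7 at 72 h and 240 h, Itga7 was higher at 240 h, and Itga3 was lower at 48 h and 72 h and higher at 240 h. Calls needed a Benjamini-Hochberg adjusted p under 0.05 together with a log2 fold change beyond 0.58 in either direction. All 10 members passed the minimum of 10 reads on average in each comparison. At 48 h, 2 of 10 were called, both lower (Itga3 and Itga9), where 9.23% of the 16108 genes tested passed as well, 4.32% of them upwards and 4.90% downwards. At 72 h, 3 of 10 were called, all lower (Itga3, Itga9 and Itgb7), against 22.3% of 16146 genes, 12.3% higher and 10.0% lower. At 240 h, 4 of 10 were called, against 17.7% of 16633 genes, 9.76% higher and 7.95% lower. Itga3 and Itga7 were higher there and Itga9 and Itgb7 lower. On the adjusted p alone, with no fold threshold, 4, 8 and 8 of the 10 passed at the 3 times, and 26.1%, 61.9% and 45.2% of all genes. The median log2 fold change of the 10 members was -0.01 at 48 h, 0.11 at 72 h and 0.18 at 240 h, against 0.01, 0.02 and 0.01 over all genes tested. Each call moves the share of the members by 10 percentage points, and the 72 h and 48 h comparisons share their control libraries.

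**Figure D2:**
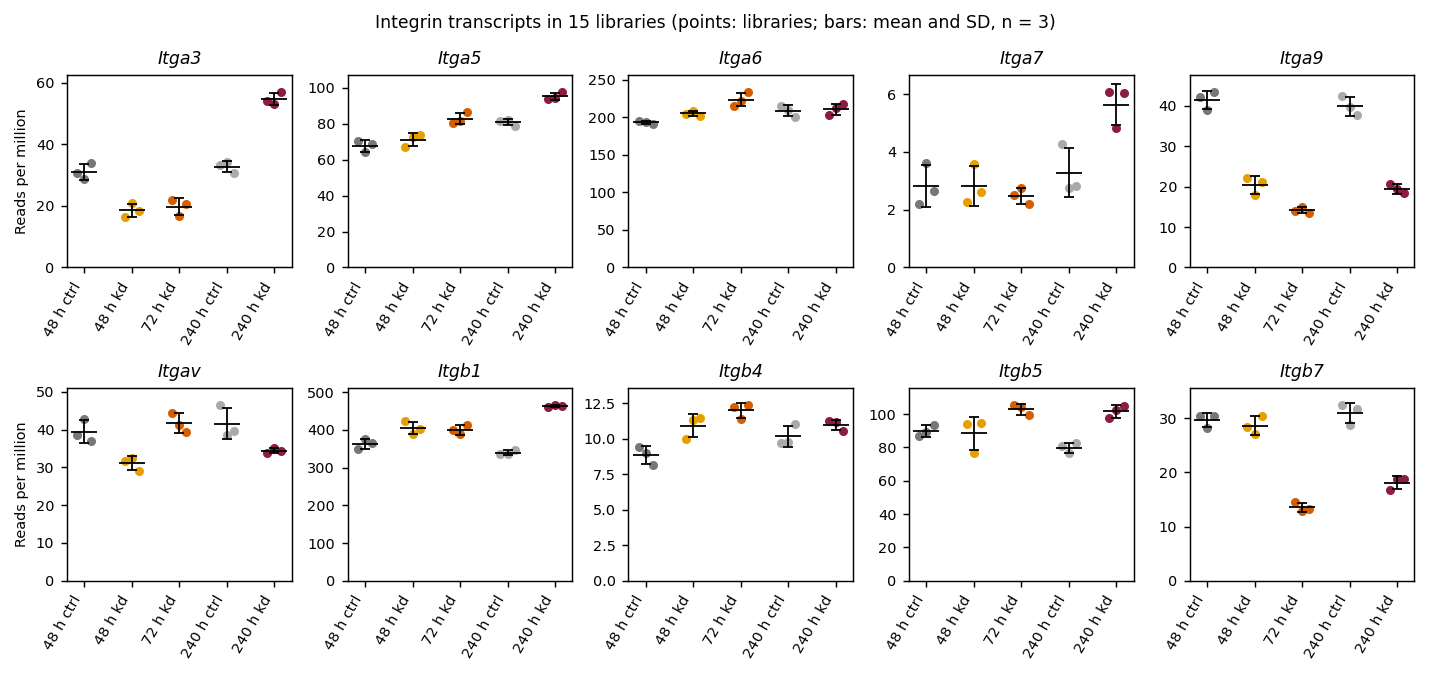
Level of each of the 10 integrin transcripts in rpm (axes from 0) in the 5 groups; points are libraries, and the bars give the mean and SD of 3 libraries. Itga9 is lower in all kd groups, Itga3 is lower in 48 h and 72 h kd and higher in 240 h kd (53.0 to 56.9 rpm), and Itgb7 is lower in 72 h and 240 h kd but not in 48 h kd.

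**Figure D3:**
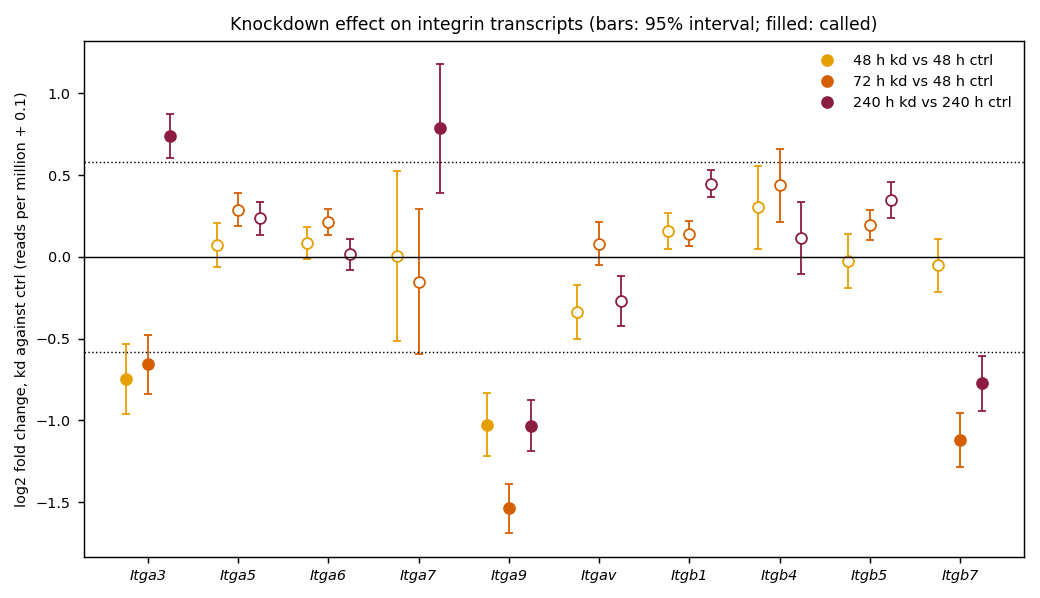
Log2 fold change of each integrin between kd and its control, with the 95% interval of the limma fit, for 48 h, 72 h and 240 h; filled points were called and dotted lines stand at 0.58 and -0.58. Itga9 is called at all 3 times, Itga3 on opposite sides of 0 at 72 h and 240 h, and most other members lie between the lines.

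Itga9 encodes the α chain of a tenascin receptor and was the member with the largest fall. Its gene (ENSMUSG00000039115.13) covers 294314 bases of chromosome 9 on mm10, from 118606690 to 118901003, of which 7691 are exonic. The 48 h ctrl libraries stood at 42.1, 39.0 and 43.5 rpm and the 240 h ctrl libraries at 42.4, 39.7 and 37.7 rpm. The 48 h kd libraries stood at 22.1, 17.9 and 21.2 rpm, those of 72 h kd at 14.1, 15.1 and 13.6 rpm, and those of 240 h kd at 20.6, 19.4 and 18.4 rpm. All 9 knockdown libraries lay below all 6 controls. The log2 fold change was -1.03 at 48 h (adjusted p = 5.6e-06 by limma, standard error 0.089). It was -1.54 at 72 h (adjusted p = 1.0e-14 by limma, standard error 0.074) and -1.03 at 240 h (adjusted p = 4.4e-09 by limma, standard error 0.074). The level thus was 49.1%, 34.3% and 48.7% of control at the 3 times. Between 72 h and 48 h kd the log2 difference was -0.51 (adjusted p = 0.0013 by limma, standard error 0.0996), which is under the fold threshold. Without 48 h kd replicate 2 the 48 h value was -0.94.

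The antisense gene Gm2415 overlaps the 3′ end of Itga9 by 10929 bases on the opposite strand, and its reads equal 30.8% to 45.6% of those of Itga9. Whether counting used strand is not given in the sources used here, so reads in the shared stretch cannot be assigned to either gene. Gm2415 had log2 fold changes of -1.20, -1.43 and -0.97 at the 3 times and was called lower at each. With every Gm2415 read taken off, 98 to 357 reads per library remained to Itga9, and its log2 fold changes were -0.92, -1.61 and -1.06, all still called.

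Itga3, the α chain of a laminin receptor, moved in opposite directions early and late. Its gene (ENSMUSG00000001507.16) lies on chromosome 11 of mm10 from 95044474 to 95076801. The 48 h ctrl libraries stood at 30.6, 28.8 and 33.9 rpm against 16.5, 20.8 and 18.3 rpm in 48 h kd. The 72 h kd libraries stood at 22.0, 16.8 and 20.5 rpm. The 240 h ctrl libraries were close to the earlier controls at 33.1, 34.3 and 30.8 rpm, while 240 h kd reached 54.1, 53.0 and 56.9 rpm. The 6 early kd libraries all lay under the controls and the 3 late kd libraries all above them. Itga3 fell at 48 h with a log2 fold change of -0.75 (adjusted p = 0.00015 by limma, standard error 0.099). It fell at 72 h by 0.66 on the log2 scale (adjusted p = 7.2e-07 by limma, standard error 0.088). It rose at 240 h with a log2 fold change of 0.74 (adjusted p = 3.9e-08 by limma, standard error 0.063). The kd level was 59.6%, 63.5% and 167% of control. The 72 h call rests on 1 library, since without 72 h kd replicate 2 the log2 value was -0.54, under the fold threshold.

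Itgb7, the β chain known from lymphocyte homing, differed from control at the later times. Its gene (ENSMUSG00000001281.10) lies on chromosome 15 of mm10 from 102215995 to 102231944. The 48 h ctrl libraries stood at 30.5, 28.2 and 30.4 rpm and the 48 h kd libraries at 28.4, 27.0 and 30.5 rpm. These 2 groups overlapped. The 72 h kd libraries stood at 14.5, 12.95 and 13.3 rpm. At 240 h the control libraries stood at 32.4, 28.8 and 31.7 rpm and the kd libraries at 16.7, 18.9 and 18.7 rpm. From 72 h on, each kd library was under every control. The log2 fold change was -0.05 at 48 h (95% interval -0.22 to 0.11). It was -1.12 at 72 h (adjusted p = 1.4e-11 by limma, standard error 0.079) and -0.77 at 240 h (adjusted p = 4.6e-07 by limma, standard error 0.080). Between the 72 h and 48 h kd libraries, which share no sample with a control, Itgb7 fell by 1.07 on the log2 scale (adjusted p = 2.3e-06 by limma, standard error 0.086). It was the 1 member of 10 called in that comparison, in which 12.9% of 16104 genes were called. The 5 leukocyte markers summed to 3.36 to 4.69 rpm in 48 h ctrl, 4.52 to 5.60 in 48 h kd, 5.10 to 5.87 in 72 h kd, 4.26 to 5.68 in 240 h ctrl and 4.26 to 5.01 rpm in 240 h kd. Ptprc and Lyz2 were at 0 in both 48 h groups. Of the 2 with enough reads, Itgal was not called and Cd3e was higher at 72 h by 0.73 (adjusted p = 0.030 by limma) but not against 240 h ctrl (0.16). Their part in the Itgb7 values was not tested.

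Itga7, the α chain of a laminin receptor best known from muscle, was the lowest of the 10, with 26 to 82 reads per library. At 240 h it stood at 4.26, 2.76 and 2.81 rpm in ctrl and at 6.07, 4.82 and 6.02 rpm in kd. The 3 kd libraries lay above the controls, and Itga7 rose with a log2 fold change of 0.79 (adjusted p = 0.0024 by limma, standard error 0.186). At 48 h the ctrl libraries ranged from 2.19 to 3.61 rpm and the kd libraries from 2.26 to 3.58 rpm, which overlap. The 95% interval of the log2 fold change at that time ran from -0.51 to 0.52, so a change within this range was not detectable at this depth. In 72 h kd it ranged from 2.18 to 2.75 rpm.

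Itgb1, the shared β chain, was the most abundant member with 4123 to 6750 reads per library and never passed the fold threshold. It stood at 350, 375 and 364 rpm in 48 h ctrl and at 423, 390 and 403 rpm in 48 h kd. It stood at 399, 388 and 413 rpm in 72 h kd. At 240 h it was at 336, 335 and 347 rpm in ctrl and at 460, 465 and 463 rpm in kd. Every kd library was above every control. The log2 fold changes were 0.16 (adjusted p = 0.036 by limma), 0.14 (adjusted p = 0.0021 by limma) and 0.45 (adjusted p = 5.1e-08 by limma) at the 3 times. The largest of these, at 240 h, had a 95% interval of 0.37 to 0.53 and corresponds to 136% of control. Against 240 h ctrl the 72 h value was 0.24 (adjusted p = 8.9e-05 by limma). Because Itgb1 has many reads, intervals this narrow set small differences apart from 0.

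The other β chains differed little. Itgb5, the partner of the αv chain, ranged from 86.8 to 93.4 rpm in 48 h ctrl and from 76.8 to 94.5 rpm in 48 h kd. It ranged from 99.3 to 105 rpm in 72 h kd, from 76.5 to 82.4 rpm in 240 h ctrl and from 97.6 to 105 rpm in 240 h kd. The groups overlapped at 48 h, with a log2 fold change of -0.03, or 0.07 without 48 h kd replicate 2. Its value at 72 h was 0.20 (adjusted p = 0.00057 by limma), and 0.37 against 240 h ctrl (adjusted p = 6.2e-06 by limma). The groups did not overlap at 240 h, where the log2 fold change was 0.35 (adjusted p = 2.7e-05 by limma, standard error 0.051). Itgb4, the hemidesmosome chain, ranged from 8.13 to 12.4 rpm over all 15 libraries. Its log2 fold change was 0.30 at 48 h, 0.44 at 72 h (adjusted p = 0.0011 by limma) and 0.11 at 240 h, none called. Against 240 h ctrl in place of 48 h ctrl, the 72 h value was 0.24 (adjusted p = 0.052 by limma).

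Among the remaining α chains, none was called at any time. Itga5, of the fibronectin receptor, stood between 64.2 and 70.6 rpm in 48 h ctrl, between 80.5 and 86.3 rpm in 72 h kd, between 79.0 and 82.0 rpm in 240 h ctrl and between 94.0 and 97.7 rpm in 240 h kd. Its log2 fold change was 0.07 at 48 h (adjusted p = 0.44 by limma) and 0.29 at 72 h (adjusted p = 2.0e-05 by limma). At 240 h, against its own control, it was 0.24 (adjusted p = 0.00064 by limma). Against 240 h ctrl in place of 48 h ctrl, the 72 h value was 0.03 (adjusted p = 0.56 by limma), since Itga5 also differed between the 2 control groups by 0.25 (adjusted p = 0.0061 by limma). Itga6, a laminin receptor chain that marks many stem cells, ranged from 191 to 234 rpm in all 15 libraries. Its log2 fold change at 72 h was 0.21 (adjusted p = 5.0e-05 by limma), and 0.10 against 240 h ctrl (adjusted p = 0.065 by limma). Its 95% interval at 240 h ran from -0.08 to 0.11 on the log2 scale. Itgav ranged from 29.2 to 32.6 rpm in 48 h kd against 36.9 to 42.8 rpm in 48 h ctrl, with a log2 fold change of -0.34 (adjusted p = 0.0064 by limma). At 72 h kd it ranged from 39.3 to 44.5 rpm, overlapping control. In 240 h kd the 3 libraries ran from 33.8 to 35.1 rpm against 38.6 to 46.4 rpm in ctrl, a log2 difference of -0.27 (adjusted p = 0.0054 by limma). Between 72 h and 48 h kd Itgav differed by 0.42 (adjusted p = 0.00057 by limma), under the fold threshold.

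The time in culture alone was examined in the untreated cells. Between 240 h and 48 h ctrl, 0 of the 10 members were called by limma and 0 by limma voom, with 4 at an unadjusted p under 0.05, where 1.36% of 16215 genes were called. The member log2 differences ran from -0.17 for Itgb5 to 0.25 for Itga5. With 240 h ctrl as the control of 72 h kd, the same 3 members were called, with log2 fold changes of -0.73 for Itga3, -1.18 for Itgb7 and -1.48 for Itga9.

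Whether the knockdown effect itself differed between 240 h and 48 h was tested by an interaction term over 12 libraries. The effect on Itga3 was higher at 240 h by 1.49 (adjusted p = 7.0e-08 by limma, standard error 0.118) and that on Itgb7 lower by 0.72 (adjusted p = 9e-05 by limma, standard error 0.107). These 2 of 10 were called, where 10.5% of 16403 genes were. On the adjusted p alone, 4 of 10 passed (Itgb1 and Itgb5 too) and 20.4% of all genes. For Itga9 the difference of effects was -0.01 with a 95% interval of -0.25 to 0.24. For Itga7 it was 0.78 (adjusted p = 0.092 by limma), and without 48 h kd replicate 2 it was 0.96 and called (adjusted p = 0.030 by limma).

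Other cell type markers moved at 240 h, when Itga3 and Itga7 were higher. The summed level of 7 fibroblast markers was 19.6 to 23.2 rpm in 240 h kd and 7.97 to 9.09 rpm in 240 h ctrl, and 2 of the 3 with enough reads were called higher. The third, Thy1, had -0.50 at 240 h (adjusted p = 0.036 by limma) and was called lower at 48 h (-0.96) and 72 h (-1.09), when Col1a1, the other one tested, was called higher (0.73 and 0.79). Col1a1 was also called higher in 240 h ctrl than in 48 h ctrl (0.64), and against 240 h ctrl its 72 h value was 0.15 and not called. Lum and Postn were at 0 in 240 h ctrl, and no fibroblast marker was at 0 throughout 240 h kd. The 7 primitive endoderm markers summed to 20.4 to 21.9 rpm against 14.6 to 15.8 rpm, and 3 of 5 tested were called higher. Sox7 was called lower by 1.23 on the log2 scale (adjusted p = 0.00064 by limma), as it was at 48 h (-1.68) and 72 h (-3.12). The 5 mesoderm markers summed to 4.02 to 4.33 rpm against 2.35 to 3.36 rpm, and Mixl1 was the 1 tested and was called higher (1.24). Tbx6 was called higher at 48 h (1.31) and 72 h (1.26), when Itga3 and Itga9 were lower, but not at 72 h against 240 h ctrl (0.48). The trophoblast markers summed to 108 to 112 rpm in kd and to 69.7 to 76.2 rpm in ctrl. Of the 4 tested at 240 h, Tfap2c (0.65) and Cdx2 (2.05) were called higher and Eomes (-1.03) lower. At 48 h, when Itga3 and Itga9 were lower, the trophoblast markers summed to 53.0 to 57.5 rpm in kd, and both of those tested, Tfap2c (-0.62) and Eomes (-0.71), were called lower. At 72 h, when Itgb7 was lower, they summed to 152 to 157 rpm against 82.4 to 88.7 rpm in 48 h ctrl. Of those tested there, Tfap2c was called higher (0.92). Eomes had -0.39, and -0.55 against 240 h ctrl, neither called. The mESC markers summed to 4362 to 4443 rpm in 240 h kd and to 4782 to 5164 rpm in 240 h ctrl. Esrrb (-0.80) and Zfp42 (-0.581) were called lower there, and Dppa5a (0.23) and Tdgf1 (0.15) stood above 0 without a call. Pou5f1, Sox2 and Nanog were not called. In 72 h kd the mESC markers summed to 5961 to 6153 rpm against 5121 to 5376 rpm in 48 h ctrl. Dppa5a was the only one of them called at 72 h (1.04). The part of these shifts in the integrin values was not tested. In such bulk samples, fewer cells of a type and less RNA per cell cannot be told apart.

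Of the other integrins, 9 had enough reads to be tested at 48 h and 240 h and 8 at 72 h. The calls were 2 higher and 0 lower at 48 h, 2 higher and 1 lower at 72 h, and 1 higher and 0 lower at 240 h, against 9.23%, 22.3% and 17.7% of all genes called. Among the 9 tested at 48 h and at 240 h, 1 had an unadjusted limma p under 0.05 and a lower level at each time. It was Itga1 at 48 h, which was higher at 240 h, and Itgae at 240 h. Itga8, an α chain that binds nephronectin, was called higher at all 3 times, with log2 fold changes of 0.97, 1.21 and 1.67 on 16 to 86 reads per library. It stood at 1.54 to 1.95 rpm in 240 h ctrl and at 5.17 to 6.32 rpm in 240 h kd, without overlap. Itga2b, the α chain of the platelet fibrinogen receptor, stood at 1.15 to 1.71 rpm in 48 h ctrl and at 6.41 to 7.23 rpm in 72 h kd, a log2 fold change of 2.21 (adjusted p = 5.6e-10 by limma, standard error 0.192). Its value was 0.78 at 48 h (adjusted p = 0.0499 by limma, and not called by limma voom, which called 1 of the 9) and 0.46 at 240 h (adjusted p = 0.14 by limma). Itga10 was lower at 72 h by -0.85, with its span shared as described. Itgb3, the partner of the Itga2b chain, had log2 fold changes of -0.11, -0.41 and 0.55, none called. Itga1 (-0.37, -0.38 and 0.36) and Itgae (-0.13, -0.47 and -0.15) were not called, and their reads cannot be told apart from those of the nested genes. Itga4, Itga11 and Itgal were not called in any knockdown comparison that tested them.

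Of 25 activators and adaptors that act on the integrin tails, 24 were tested at each time. The calls were 0 higher and 4 lower at 48 h, 1 higher and 3 lower at 72 h, and 2 higher and 2 lower at 240 h, where 9.23%, 22.3% and 17.7% of all genes tested were called. At 48 h, limma gave 3 of the 24 an unadjusted p under 0.05 with a higher level. Tns1, a tensin that couples the β tail to actin, stood at 22.7 to 25.4 rpm in 48 h ctrl and at 10.6 to 13.6 rpm in 48 h kd, and fell at all 3 times with log2 fold changes of -1.07, -1.11 and -1.08. The parvins bind integrin-linked kinase. Parva stood at 9.56 to 11.04 rpm in 48 h ctrl and at 3.75 to 4.88 rpm in 48 h kd. It fell at 48 h (-1.24) and 72 h (-1.11), and its value was -0.30 at 240 h. Parvb stood at 99.3 to 104 rpm in 48 h ctrl and at 58.2 to 66.0 rpm in 48 h kd. It fell at 48 h (-0.70) and at 240 h (-0.95), with -0.20 at 72 h. Zyx, zyxin of mature focal adhesions, stood at 25.6 to 27.0 rpm in 240 h ctrl and at 49.6 to 53.8 rpm in 240 h kd and rose there by 0.99 (adjusted p = 1.1e-09 by limma, standard error 0.063). The interaction term was 1.15 for Zyx and 0.94 for Parva, both called. The median of the 24 was -0.12, -0.09 and 0.03 at the 3 times. With 240 h ctrl as the control at 72 h, Plec (-0.70) and Tns3 (-0.71), named after their values were seen, were called lower too.

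The inhibitors of integrin activation (Itgb1bp1, Sharpin, Flna and Dok1) were not called in any knockdown comparison. Over all genes tested, 9.23%, 22.3% and 17.7% were called at 48 h, 72 h and 240 h. On the adjusted p alone, 26.1%, 61.9% and 45.2% of all genes passed. Of the 4 inhibitors, 2, 1 and 3 had an unadjusted limma p under 0.05 at 48 h, 72 h and 240 h, and limma voom called 0. In the interaction, Dok1 was called (0.93, adjusted p = 0.0050 by limma), and against 240 h ctrl Flna was called lower at 72 h (-0.64, with -0.44 against 48 h ctrl). Of the 8 membrane partners, 7 were tested at 48 h and 8 later. The calls were 0 higher and 1 lower, 3 higher and 1 lower, and 2 higher and 1 lower, where 9.23%, 22.3% and 17.7% of all genes were called. At 48 h, 2 of the 7 had an unadjusted limma p under 0.05 with a higher level. The tetraspanins organise integrins in the membrane. Cd63 stood at 44.1 to 47.4 rpm in 48 h ctrl, 113 to 122 rpm in 72 h kd, 40.2 to 43.4 rpm in 240 h ctrl and 102 to 109 rpm in 240 h kd. It rose by 1.36 at 72 h (adjusted p = 4.0e-17 by limma) and by 1.32 at 240 h (adjusted p = 3.7e-12 by limma), with 0.50 at 48 h. Cd82 rose by 1.65 and 1.73 at those times from a low level of 0.451 to 0.583 rpm in 48 h ctrl. Cd151, which binds the laminin receptor chains, rose by 0.74 at 72 h. The tetraspanins Cd9 and Cd81, named after their values were seen, were lower at 240 h. Cd9 was called there (-0.61, adjusted p = 1.8e-08 by limma), and had -0.48 at 48 h and -0.20 at 72 h. Cd81 had -0.17, 0.26 and -0.47 at the 3 times, none called. Cd47, a partner of the Itgav receptors, fell by 1.11 at 48 h and by 1.37 at 72 h, and had -0.10 at 240 h. It was also called lower in 240 h ctrl than in 48 h ctrl (-0.66), and its 72 h value was -0.71 against 240 h ctrl, still called.

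Of 24 ligand genes, 21 were tested, with 2 higher and 7 lower at 48 h, 6 higher and 6 lower at 72 h, and 3 higher and 5 lower at 240 h. Over all genes, 9.23%, 22.3% and 17.7% were called at these times. The medians were -0.12, -0.18 and -0.09. Lama1, the α chain of laminin-111 of early basement membrane, stood at 112 to 117 rpm in 48 h ctrl, 27.4 to 28.8 rpm in 48 h kd and 18.0 to 21.9 rpm in 72 h kd. It fell by 2.04, 2.56 and 2.06 on the log2 scale at the 3 times. Fn1, fibronectin, stood at 855 to 928 rpm in 48 h ctrl and 464 to 489 rpm in 48 h kd, and at 1001 to 1090 rpm in 240 h ctrl and 179 to 196 rpm in 240 h kd. It fell at 48 h (-0.88) and 240 h (-2.47) and had -0.23 at 72 h, and the interaction term of -1.59 was called. Thbs1, thrombospondin, stood at 2.42 to 3.78 rpm in 240 h ctrl and at 13.7 to 16.2 rpm in 240 h kd. It rose at 72 h (0.87) and 240 h (2.28), and was also called higher in 240 h ctrl than in 48 h ctrl (0.76). Set against 240 h ctrl, its 72 h value was 0.11 and not called. Lamb3, a chain of laminin-332, fell at 48 h (-1.91) and 72 h (-1.92) from 2.03 to 2.19 rpm in 48 h ctrl. Other laminin genes, given here after their values were seen, went both ways. Lamc1 was called higher at 48 h (0.77) and 72 h (0.72), and Lama5 (0.73) and Lamb2 (0.93) at 72 h. With 240 h ctrl as the control, Lamc1 (0.43) and Lama5 (0.23) were not called at 72 h. Lama4 was called lower at 48 h (-1.76) and 72 h (-1.56), while Lamb1 and Lama3 were not called at any time. The laminin gene Lama1 and the fibronectin gene Fn1 thus stood at 23.9% and 18.0% of control at 240 h, when the laminin receptor chain Itga3 was at 167%, Itga6 at 101% and the fibronectin receptor chain Itga5 at 118% of control.

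**Figure D4:**
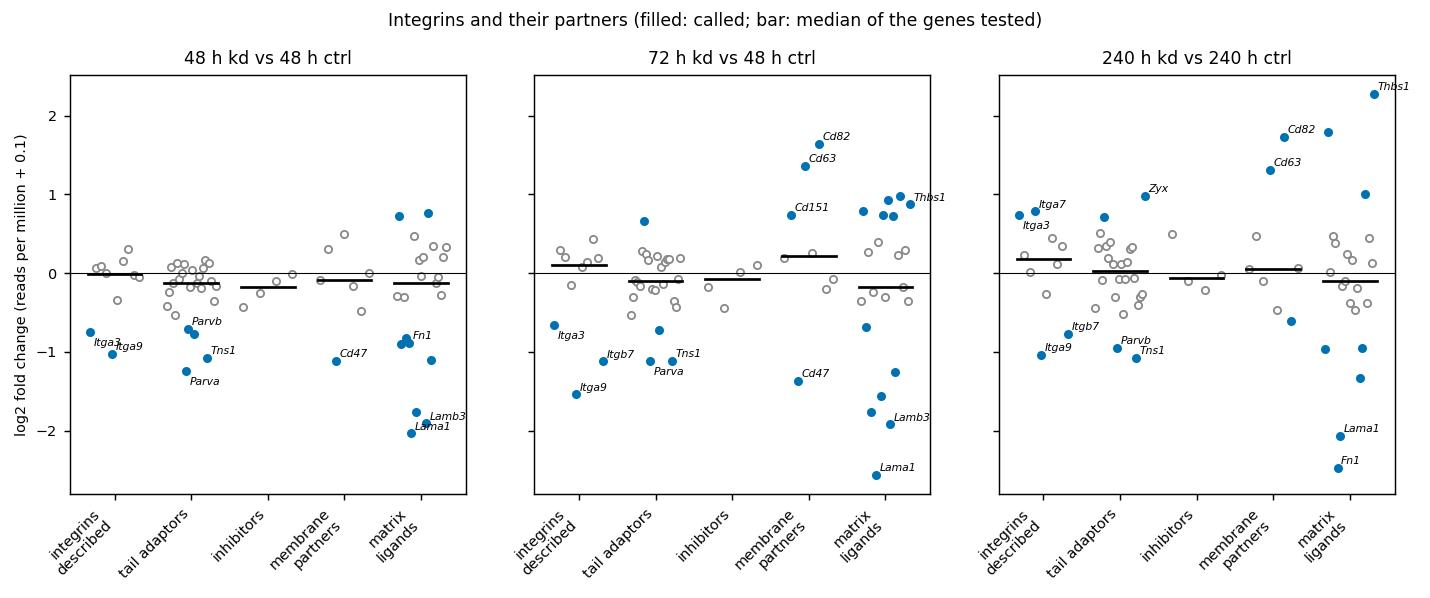
Log2 fold change of each tested gene among the 10 integrins, 24 tail adaptors, 4 inhibitors, up to 8 membrane partners and 21 matrix ligands in the 3 knockdown comparisons; filled points were called, bars are medians, and named points are those in the text. The medians stay near 0 while single ligands such as Lama1 (-2.56 at 72 h) and Thbs1 (2.28 at 240 h) lie far out.

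The members did not move as 1 group across libraries. Over the 15 libraries, which share groups and treatment, the Pearson correlation of log2 rpm was highest between Itga9 and Itgb7 (0.82) and lowest between Itga9 and Itgb4 (-0.84) of the 45 pairs. The dimer partners Itga6 and Itgb4 had 0.69, and the partners Itgav and Itgb5 had -0.09. The chains of Itga3 and Itgb1 had 0.27 and those of Itga9 and Itgb1 -0.72. Among 11014 genes averaging at least 100 reads, those whose pattern was most like that of Itga9 were Yme1l1 (0.98), a mitochondrial protease, Zfp59 (0.98), a zinc finger gene, and Arrb1 (0.98), a β-arrestin. Zfp59 stood at 33.6 ± 1.17 rpm in 48 h ctrl, 15.9 ± 0.450 rpm in 48 h kd and 12.5 ± 1.08 rpm in 72 h kd (SD, n = 3). For Itgb7, among 11015 genes, they were Rest (0.98), a repressor of neuronal genes, Nefl (0.97), a neurofilament gene, and Fkbp5 (0.97), a co-chaperone. Nefl stood at 43.3 ± 2.48 rpm in 48 h ctrl, 33.9 ± 1.34 rpm in 48 h kd, 11.7 ± 0.322 rpm in 72 h kd and 17.6 ± 1.04 rpm in 240 h kd (SD, n = 3).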

How the data were processed

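RNA-seq of 15 libraries in 5 groups was analysed, grouped by the labels. The authors aligned single-end reads with STAR 2.7.0c to mm10 (GRCm38.p6), counted them over genes in R, and tested counts with DESeq2 1.30.0 in R 4.0.3. The deposited values are FPKM per gene. Each value times gene span and library total gave whole reads for 100% of values (tolerance 0.001). Gene sums exceeded library totals by 7.38% to 8.34%, as reads in overlapping genes can count for each. The annotation used to count RNA-seq reads is not given in the sources used here, where a later GENCODE release is named for ChIP-seq peaks. Of the listed genes 96.5% matched GENCODE M21, the release at hand, which gave strand and exons. RefSeq gave promoters.

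FPKM was multiplied by the gene span to give reads per 1000000 library reads (rpm), and log2(value + 0.1) was tested with limma 3.58.1 in R 4.3.3 (eBayes with trend, two-sided) keeping genes that averaged at least 10 reads, with Benjamini-Hochberg adjustment over all genes tested. Calls needed an adjusted p under 0.05 and a log2 fold change beyond 0.58 in either direction. An FPKM minimum leaves out long genes, so it served as an alternative. Fold changes understate those of low genes. An exact permutation test of 3 against 3 cannot go below 0.1 and was not used. On simulated data, 90.7% of 194, 90.9% of 197 and 90.2% of 194 genes changed 2-fold were recovered at 48 h, 72 h and 240 h, with 1, 2 and 1 false calls. Members, gene lists and markers were chosen with earlier results of these data known. Named are Smarcb1, all members, other integrins with a mean of at least 10 reads, at most 4 called genes of each list by size of change, the 3 genes most like each of 2 members, and overlapping genes. Alternatives were other pseudocounts, minimums, scalings, log2(FPKM + 0.1), voom, a joint fit, no variance trend, a replicate block, other controls and each library left out; subtraction of Gm2415 reads was added after seeing the data. Python 3.11.15, numpy 2.4.6, pandas 2.3.3 and matplotlib 3.10.9 were used.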

Additional observations from a re-analysis of the deposited data

Results flagged for a closer look

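For 4 of the 10 integrins the effect of knockdown differed between 240 h and 48 h by the interaction term of the limma fit over 12 libraries, on the adjusted p alone, which 20.4% of 16403 genes also passed. The effect at 240 h minus that at 48 h was 1.49 on the log2 scale for Itga3 (adjusted p = 7.0e-08) and -0.72 for Itgb7 (adjusted p = 9e-05). It was 0.38 for Itgb5 (adjusted p = 0.009) and 0.29 for Itgb1 (adjusted p = 0.0018), both under the fold threshold of 0.58. With 1 library left out at a time, the Itga3 value ran from 1.40 to 1.57, that of Itgb7 from -0.77 to -0.66, that of Itgb5 from 0.28 to 0.43 and that of Itgb1 from 0.26 to 0.32, the lowest Itgb5 and Itgb1 values being those without 48 h kd replicate 2.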

How the results depend on the processing

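Of the 9 counts of called genes or members, those that moved by more than 1.5 times did so as follows. With a minimum of 50 reads, 876, 2232 and 1663 genes were called at 48 h, 72 h and 240 h. On log2(FPKM + 0.1) with a minimum of 0.5 FPKM there were 456, 1548 and 1016 calls, and of the 6 integrins then tested 1 was called at 48 h and 2 at 240 h; fewer genes are tested there. With no fold threshold, 4, 8 and 8 of the 10 integrins passed, where 26.1%, 61.9% and 45.2% of all genes did. Between 72 h and 48 h kd, 1206 genes were called with the minimum of 50 reads and 857 on FPKM, and the interaction had 664 on FPKM.

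Between the control groups, the 221 calls became 118 with a pseudocount of 1, 107 with the minimum of 50 reads, 54 on FPKM, 360 on TPM (322 higher and 38 lower, against 139 and 82), 333 with the replicate number as a block and 95 to 308 with 1 library left out. Without the variance trend limma called 0, with 3905 genes at an unadjusted p under 0.05, and limma voom called 220. Rescaling to TPM moved the median of all genes by 0.11 there. Replicate numbers did not pair the samples: same-number correlations ran from -0.21 to 0.18, and in no comparison did every library correlate best with its own number. The block changed no other count by more than 1.5 times and no member's call.

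All calls of Itga9, Itgb7 and Itga7, and those of Itga3 at 48 h and 240 h, held wherever they were tested. At 72 h, 2 to 3 members were called with 1 library left out. Values near 0 changed sign. Itga7 at 48 h was -0.013 on median centring and -0.035 on TPM, and -0.17 to 0.19 with 1 library left out. With 1 library left out, Itgb5 at 48 h ran from -0.080 to 0.069, Itga7 at 72 h from -0.31 to 0.034 and Itga6 at 240 h from -0.014 to 0.042. The Itga9 interaction was 0.015 on quantile normalization, 0.027 on TPM and -0.098 to 0.051 with 1 library left out. The Itga7 interaction was called without 48 h kd replicate 2 (0.96, limma adjusted p = 0.030) and without 240 h ctrl replicate 1 (0.98, limma adjusted p = 0.040). The cause of these shifts was not tested. Itga7 had the fewest reads of the 10, 26 to 82 per library, and the largest standard error of the 10 in each comparison.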
